A study of Homo sapiens with 12 samples.

Results

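The KDM2B peak list of SIL-ALL, a T-cell acute lymphoblastic leukaemia (T-ALL) line, held 15304 peaks, and every peak of that list was included, out of 79473 peaks in the 7 lists of the study. ChIP-seq, which sequences the DNA that an antibody pulls down with its protein, was run with an antibody to KDM2B on human leukaemia lines kept in IMDM and fetal bovine serum; the labels name no treatment. SIL-ALL was set against the other T-ALL lines DND41, HPB-ALL and JURKAT, and then against K562 (chronic myeloid leukaemia in blast crisis) and the B-cell precursor leukaemia lines REH and SUP-B15, together called the non-T lines. Each line gave 1 KDM2B library and 1 list, so no value has replicate error and no p-value is given: an exact permutation of 1 line against 6 cannot go below 0.143. The lineage of each line is background knowledge and not in the labels, which name only a leukaemia cell line; marker expression was not measured here, so lineage was not tested. No source used here gives the genetic lesions of SIL-ALL.

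KDM2B is a JmjC-domain lysine demethylase that reads unmethylated CpG-rich DNA through a CXXC zinc finger. With PCGF1, BCOR and RING1B it forms a variant Polycomb complex that ubiquitinates histone H2A, and much of its binding falls on CpG islands at gene starts. T-ALL arises from immature T cells, often with ectopic transcription factors such as TAL1, TLX1, TLX3 or LMO2, with NOTCH1 activation and with loss of CDKN2A. The peaks lie on the hg19 genome build, for which neither gene annotation nor sequence was used here. Positions are therefore given by chromosome band, a gene named with a band is background on that band, and whether a peak overlaps that gene was not tested.

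SIL-ALL had the longest list of the study, made of narrow peaks that often lay side by side. DND41 followed with 14944 peaks, JURKAT with 14839 and HPB-ALL with 12765, ahead of the non-T lists with 8146 (REH), 7533 (SUP-B15) and 5942 (K562). SIL-ALL peaks ran from 56 to 3740 bp, with a median of 223 bp and the middle of the distribution, from the lower to the upper quartile, between 157 and 356 bp. They covered 4.85 Mb, the most of any list, where the other T-ALL lists covered 4.28 to 4.57 Mb. Peaks of 1 kb or more numbered 515 in SIL-ALL, 3.37% of the list, against 1.92% to 3.13% in the other T-ALL lists, 18.8% in K562, 5.40% in SUP-B15 and 0.724% in REH. SIL-ALL thus lay above the other T-ALL lists and within the range of the non-T lists in this share.

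Of the SIL-ALL peaks, 9913 (64.8%) had a neighbour within 500 bp in the same list. These formed 3775 clusters, and joining them left 9166 separate sites, next to 9172 in JURKAT, 8280 in DND41 and 8052 in HPB-ALL. By sites, SIL-ALL and JURKAT were therefore of nearly equal length. There were 202 SIL-ALL clusters of 5 or more peaks, and the fullest held 10. The other T-ALL lists had 106 (HPB-ALL) to 274 (DND41) such clusters, and their fullest held 11 (JURKAT) to 16 (DND41). The share of peaks in clusters was 60.9% (HPB-ALL) to 69.8% (DND41) in these lists and 41.9% (K562) to 49.0% (SUP-B15) in the non-T lists. Of the 5 fullest in SIL-ALL, the widest spanned 4794 bp in 16q24.1 (chromosome 16, 85644873 to 85649666), where DND41 had 6 peaks, HPB-ALL 9, JURKAT 8, REH 4, SUP-B15 3 and K562 0. The others lay in 4q31.1, 19p13.11, 14q24.1 and 2p25.1. The cluster in 2p25.1 (chromosome 2, 10521359 to 10524715) stood apart from these: its 10 SIL-ALL peaks, the best at percentile 92.5 of the list, met no peak of DND41, HPB-ALL, JURKAT, K562 or SUP-B15 and 1 peak of REH.

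The score of a peak is the authors' own value, with no unit stated, and it is used here only as a percentile, the share of the same list with a score no higher. In SIL-ALL scores ran from 80.03 to 3100, with a median of 139, and followed peak width closely (Spearman's rho 0.912 across the 15304 peaks, which share a library). Across the other lists the same coefficient was 0.750 to 0.914. The value 3100 was shared by 14 SIL-ALL peaks and no SIL-ALL peak exceeded it, so the order among those 14 is not known; by width, the largest 5 are described.

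The 5 widest of the top-scored peaks lay in 20q11.21, 20q13.31, 2p21, 8p11.22 and 8q24.21, and all 6 other lists had a peak at each of them. The peak in 20q11.21 (chromosome 20, 31170206 to 31173945) was the widest of the list, at 3740 bp. DND41, HPB-ALL and REH each met it with 5 peaks, JURKAT with 4, SUP-B15 with 6 and K562 with 1. The best of these stood at percentile 99.9 of the DND41 list, 97.1 of HPB-ALL, 95.9 of JURKAT, 99.8 of REH, 98.6 of SUP-B15 and 94.3 of K562. The site was thus high in every list, and met by a single peak in K562 and by several in the others. The peak in 20q13.31 (chromosome 20, 55964815 to 55968442) reached percentile 98.2 in DND41 but 67.8 in K562. In 8q24.21, the band of the growth regulator gene MYC, the SIL-ALL peak (chromosome 8, 128747495 to 128750636) had partners at percentile 99.6 in HPB-ALL, 98.4 in JURKAT, 97.6 in DND41 and 99.8 in SUP-B15, against 57.6 in REH and 52.2 in K562. The peak in 2p21 (chromosome 2, 43451386 to 43454963) was met by 4 HPB-ALL peaks, the best at 99.7, and by 6 JURKAT peaks, the best at 58.0. A site split into several peaks is ranked here by its best peak only. The remaining peaks at the ceiling met 4 to 6 of the other lists. One of them, in 21p11.2 (chromosome 21, 9825454 to 9827581) and picked after its values were seen, was at percentile 99.9 or above in the 5 lists that had it and absent from K562. Its score was 3100 in DND41, HPB-ALL and JURKAT too. The input libraries were not used, so whether the signal at this site comes from KDM2B was not tested.

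Most SIL-ALL peaks were shared with another T-ALL line. A peak of at least 1 other T-ALL list, by an overlap of 1 bp or more, was found for 10952 of 15304 (71.6%, Wilson 95% interval 70.8 to 72.3%). All 3 other T-ALL lists met 3710 (24.2%, interval 23.6 to 24.9%). At least 1 non-T list met 6956 (45.5%, interval 44.7 to 46.2%), and all 3 met 988 (6.46%). No other list met 3508 (22.9%, interval 22.3 to 23.6%), and all 6 met 658 (4.3%). Intervals cover counting error only, and they do not cover the difference between cultures or libraries.

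**Figure D1:**
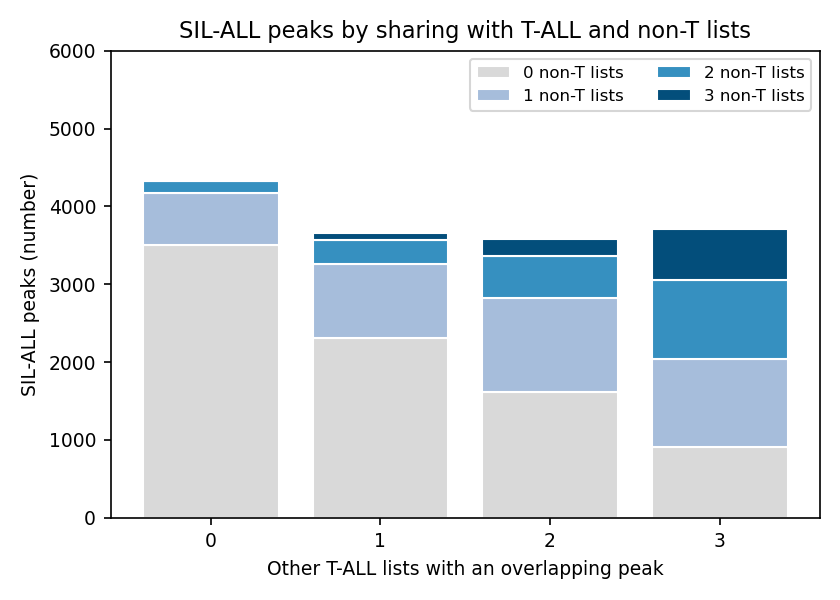
Number of SIL-ALL peaks (vertical axis) by how many of the 3 other T-ALL lists have an overlapping peak (horizontal axis); colours give how many of the 3 non-T lists do. The dark segment of 3 non-T lists is 25 peaks, too few to see, where no other T-ALL list is met and 658 where all 3 are.

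Sharing within T-ALL and sharing beyond it went together. Among the 4352 SIL-ALL peaks with no other T-ALL partner, 19.4% had a non-T partner. This rose to 36.8% of the 3660 with 1 T-ALL partner, 54.9% of the 3582 with 2 and 75.4% of the 3710 with 3. The peaks with T-ALL but no non-T partners numbered 4840 (31.6%), of which 912 (5.96% of the list) had all 3 T-ALL partners. Peaks with non-T but no T-ALL partners numbered 844 (5.51%), and 25 of these (0.163% of the list) were met by all 3 non-T lists. A SIL-ALL site outside the other T-ALL lists was thus rarely a site of all non-T lines. Over the whole list, too, only 988 peaks (6.46%) were met by all 3 non-T lists.

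Taken singly, DND41 met 7576 SIL-ALL peaks (49.5%, interval 48.7 to 50.3%), HPB-ALL 7263 (47.5%, 46.7 to 48.2%) and JURKAT 7115 (46.5%, 45.7 to 47.3%). The intervals of HPB-ALL and JURKAT overlap. SUP-B15 met 4196 (27.4%), K562 3767 (24.6%) and REH 2984 (19.5%). These shares depend on list length: with lists of 5942 top-scored peaks each, SIL-ALL peaks were met by DND41 at 51.1%, HPB-ALL at 50.4%, JURKAT at 44.6%, SUP-B15 at 38.5%, K562 at 38.3% and REH at 26.4%. The T-ALL lists still met more SIL-ALL peaks than the non-T lists did, by a smaller margin. Read the other way, SIL-ALL met 8257 of the DND41 peaks (55.3%), 7098 of HPB-ALL (55.6%), 7559 of JURKAT (50.9%), 3733 of SUP-B15 (49.6%), 2809 of K562 (47.3%) and 3074 of REH (37.7%).

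The strongest peaks of the other lists were met more often. SIL-ALL had a peak at 85.2% of the 10% of DND41 peaks with the highest scores, and at 84.6% of such peaks of HPB-ALL and 72.9% of those of JURKAT. It met 65.1% of them for SUP-B15, 51.4% for K562 and 49.8% for REH. In the 10% with the lowest scores the shares were 26.4% (REH) to 37.5% (HPB-ALL). JURKAT therefore stood closer to SUP-B15 than to DND41 and HPB-ALL by the share of its strongest peaks that SIL-ALL lacked, 402 of 1484.

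**Figure D2:**
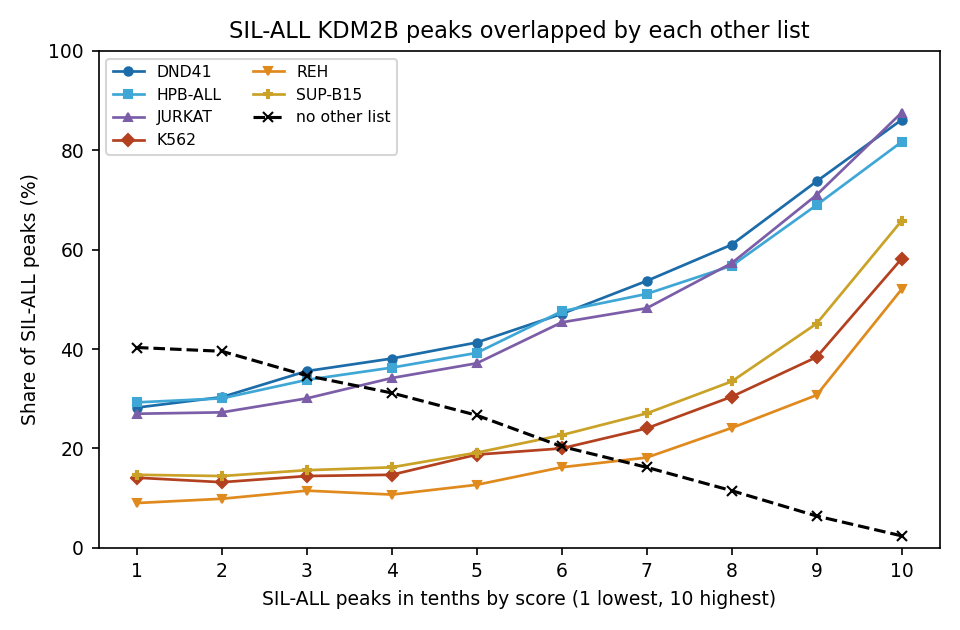
Share of SIL-ALL peaks overlapped by each other list (vertical axis, percent) in 10 equal groups of SIL-ALL peaks by score (horizontal axis); the dashed line is the share with no partner in any list. The T-ALL lines lie above the non-T lines in all 10 groups, and the dashed line goes from 40.3% in the lowest group to 2.42% in the highest.

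Within SIL-ALL the score rank and the width of a peak both went with the number of lists that shared it. The median percentile was 30.1 for peaks with no partner list, 49.0 with 2, 71.2 with 4 and 92.2 with all 6. Median width was 169 bp with no partner list and 680 bp with all 6. The ranges of single peaks were wide: the upper quartile of unshared peaks, at percentile 49.9, exceeded the lower quartile of peaks with 4 partners, at 47.0. A wide peak also has more bases in which an overlap of 1 bp can occur, and the part of width in the trend was not tested. Among the 10% of SIL-ALL peaks with the highest scores, 69.2% met all 3 T-ALL lists and 84.3% at least 1 non-T list. Among the 10% with the lowest scores these shares were 8.03% and 28.9%, and 0.523% met all 6 lists.

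**Figure D3:**
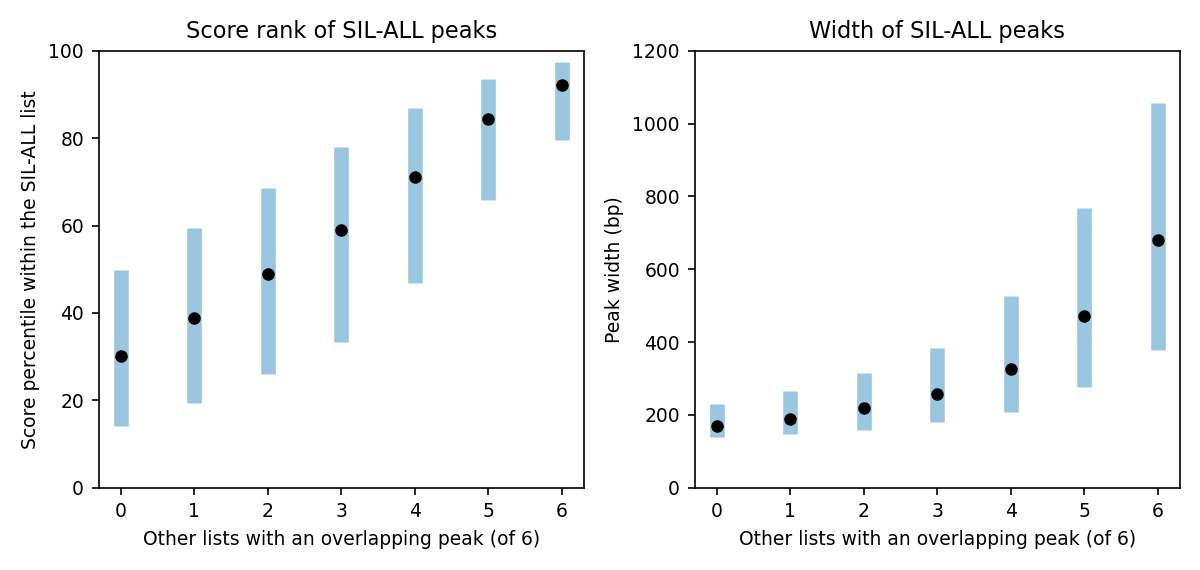
Median (dot) and quartile range (bar) of the score percentile within the SIL-ALL list (left) and of peak width in bp (right) by the number of other lists with an overlapping peak. Medians go from percentile 30.1 to 92.2 and from 169 to 680 bp, while neighbouring bars overlap.

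Partner peaks did not coincide exactly. The midpoints of overlapping peaks lay a median of 135.5 bp apart for DND41, 138 bp for HPB-ALL and 135 bp for JURKAT, and 199 bp for K562. The shared stretch made up a median of 47.3% of the SIL-ALL peak with DND41, 58.8% with HPB-ALL and 50.3% with JURKAT. With the wider K562 peaks it made up 85.3% of the SIL-ALL peak and 38.0% of the K562 peak. When each peak of a pair had to cover 50% of the other, 42.9% of SIL-ALL peaks kept a T-ALL partner and 19.8% a non-T partner. The share met by all 3 other T-ALL lists was then 3.27%, against 24.2% at 1 bp, and the share met by no list 50.3%, against 22.9%.

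Merging overlapping peaks of the 7 lists gave 29071 regions, of which SIL-ALL had a peak in 11407 (39.2%), more than any other line (JURKAT was next with 36.9%, and HPB-ALL the lowest T-ALL line with 32.8%; the non-T lines had 17.8% to 22.2%). With exactly 1 other line, SIL-ALL shared 606 regions with JURKAT, 515 with DND41, 493 with HPB-ALL, 131 with SUP-B15, 121 with REH and 85 with K562. In lists of equal length the counts were 181 (JURKAT), 160 (DND41) and 198 (HPB-ALL), so the order among the T-ALL partners was not stable. SIL-ALL with 2 other T-ALL lines and no non-T line accounted for 1038 regions: 387 with DND41 and HPB-ALL, 343 with HPB-ALL and JURKAT, and 308 with DND41 and JURKAT.

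The highest-ranked region of SIL-ALL and JURKAT alone lay in 12q24.31 (chromosome 12, 121197318 to 121199767), at percentile 99.8 in SIL-ALL and 99.9 in JURKAT. It was thus near the top of both lists and in no other. With HPB-ALL alone it lay in 1p32.3 (chromosome 1, 53067564 to 53068817), at percentile 97.8 in SIL-ALL and 83.5 in HPB-ALL. With DND41 alone it lay in 2p22.1 (chromosome 2, 38829226 to 38830501), at 95.4 and 91.2.

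SIL-ALL and the 3 non-T lines, with no other T-ALL line, shared 15 regions. The highest-ranked in SIL-ALL lay in 7p12.1 (chromosome 7, 50860092 to 50861426), at percentile 98.0 in SIL-ALL, 86.8 in SUP-B15, 83.6 in K562 and 77.7 in REH. It was followed by regions in 17q23.3 (percentile 92.3 in SIL-ALL), 19p13.2 (89.1), 1q32.1 (85.1) and 22q11.22 (79.4). The last was a single K562 peak of 14443 bp (chromosome 22, 23408393 to 23422835) that 1 SIL-ALL peak fell into.

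Regions of SIL-ALL alone numbered 3508, each of 1 peak, among 16924 regions (58.2%) of a single line. The SIL-ALL share of unshared peaks, 22.9%, was above that of DND41 (18.3%), HPB-ALL (18.2%) and JURKAT (19.9%) and within the range of the non-T lists (20.2% in SUP-B15 to 29.2% in REH). With equal lists it was 17.6%, the same as HPB-ALL and JURKAT (17.6% each), above DND41 (12.8%) and below SUP-B15 (24.0%), REH (31.1%) and K562 (33.6%). The margin over HPB-ALL and JURKAT and the place within the non-T range were thus not kept at equal length. Of the unshared peaks 1011 (28.8%) lay within 500 bp of, or in a chain with, a shared SIL-ALL peak. The rest made up 2212 sites with no shared peak, of which 238 were clusters.

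Among unshared regions the highest-ranked lay in 20q13.33 (chromosome 20, 61590370 to 61591861), at percentile 98.8 of the SIL-ALL list. The next were in 1p35.2 (chromosome 1, 32236976 to 32238484; percentile 98.7), 8q24.23 (chromosome 8, 137084517 to 137085350; 98.2), 10q26.11 (chromosome 10, 119589967 to 119591087; 98.0) and 16p12.1 (chromosome 16, 25565272 to 25565742; 97.9). All 5 were single peaks, of 471 to 1509 bp. Without a second SIL-ALL library, a site of the line and a site of the library cannot be told apart.

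SIL-ALL lacked some sites that were strong elsewhere. DND41, HPB-ALL and JURKAT had 3657 regions in common, and SIL-ALL had a peak in 3073 of them (84.0%, interval 82.8 to 85.2%). The same share was 83.8% for DND41, 80.2% for HPB-ALL and 79.5% for JURKAT when each was set against its 3 T-ALL counterparts. Of the 584 regions that SIL-ALL lacked, 342 (58.6%) had a non-T peak, against 78.7% of the 3073 it had. The mean percentile over DND41, HPB-ALL and JURKAT had a median of 59.3 in the 584 and of 73.5 in the 3073. The nearest SIL-ALL peak was over 10 kb away for 413 of the 584 (70.7%) and within 500 bp for 98 (16.8%), so most of these regions had no SIL-ALL peak near them.

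The strongest T-ALL region without a SIL-ALL peak lay in 6p23 (chromosome 6, 13485601 to 13488472), at percentile 99.8 in HPB-ALL, 99.6 in JURKAT, 99.4 in DND41 and 98.9 in K562, and lower in REH (85.9) and SUP-B15 (19.9). It was followed by regions in 1q23.3 (chromosome 1, 161695421 to 161697720), 5q13.3 (chromosome 5, 74348198 to 74349814), 12q22 (chromosome 12, 94541517 to 94544681) and 4q31.23 (chromosome 4, 148652435 to 148654296). The region in 5q13.3 had a peak in the 3 other T-ALL lines and in no non-T line, at percentile 98.5 in DND41, 99.6 in HPB-ALL and 98.7 in JURKAT.

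All 6 other lines had 779 regions in common and SIL-ALL had a peak in 709 (91.0%, interval 88.8 to 92.8%). The share was 96.9% for DND41, 94.3% for JURKAT and 86.9% for HPB-ALL, each against the 6 lines other than itself, and 65.9% to 79.7% for the non-T lines. The strongest of the 70 that SIL-ALL lacked lay in 6q25.1 (chromosome 6, 149067702 to 149069466), at percentile 94.7 (JURKAT) to 99.4 (HPB-ALL) in the other lists. The second lay in 6p21.2 (chromosome 6, 36645583 to 36648480), the band of the cell cycle inhibitor gene CDKN1A, at percentile 93.0 (HPB-ALL) to 98.8 (DND41), and the next in 10p15.1 (chromosome 10, 6018382 to 6020428), at 91.5 (REH) to 99.3 (HPB-ALL). All 6 other lists ranked these 3 regions high, and SIL-ALL had no peak in them.

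In the 709 regions of all 7 lines SIL-ALL had 1621 peaks, 2.29 per region, compared with 2.17 in HPB-ALL, 2.41 in JURKAT, 2.57 in DND41 and 1.36 to 1.83 in the non-T lines. The best SIL-ALL peak in these regions had a median percentile of 92.6. The region was a single peak in 33.3% of cases in SIL-ALL, against 25.8% in JURKAT, 31.0% in HPB-ALL, a lower share in DND41, and 71.4% in K562.

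In the 3073 regions of all 4 T-ALL lines the rank of SIL-ALL followed that of each partner loosely: Spearman's rho across regions was 0.464 with DND41, 0.421 with HPB-ALL and 0.409 with JURKAT, against 0.422 to 0.459 among the other T-ALL pairs. The rank of a line in a region is that of its best peak there. These regions share their selection and the link of score with width. Over all pairs of overlapping peaks, where a peak can enter more than once, rho was lower, at 0.178 with DND41 (9962 pairs), 0.160 with HPB-ALL (8828 pairs) and 0.134 with JURKAT (8996 pairs). The SIL-ALL percentile minus the median percentile of the other 3 had a median of 2.09 points. It was over 30 points above in 306 regions (9.96%) and over 30 points below in 296 (9.63%).

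The largest positive differences were in 20q13.12 (chromosome 20, 42295532 to 42296660), 78.2 points, 7p22.3 (chromosome 7, 2272081 to 2272722), 76.9 points, and 20q11.23 (chromosome 20, 35089989 to 35090911), 71.9 points. In 20q13.12 SIL-ALL stood at percentile 94.3, DND41 at 85.0, JURKAT at 16.1 and HPB-ALL at 5.19, so DND41 was near SIL-ALL and the others were far below. The largest negative differences were in 2q31.1 (chromosome 2, 172378525 to 172380320), -92.9 points, 1q41 (chromosome 1, 224032367 to 224034005), -89.1 points, and 1q44 (chromosome 1, 244012917 to 244014378), -88.7 points. In 2q31.1 SIL-ALL stood at percentile 2.03, and DND41 at 79.6, HPB-ALL at 94.9, JURKAT at 96.1, K562 at 86.5 and SUP-B15 at 76.4. In this merged region the best SIL-ALL peak was thus near the floor of its list, and the best peak of 5 other lists ranked high. The region held 2 SIL-ALL peaks, 4 of DND41, 3 of HPB-ALL and 2 of JURKAT. Whether the SIL-ALL peaks overlap the high-ranked ones was not checked. In 1q44 JURKAT was low as well, at percentile 22.3, with SIL-ALL at 4.12, DND41 at 92.8 and HPB-ALL at 93.7.

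Differences in rank were not spread evenly over the chromosomes. On 20p the SIL-ALL percentile exceeded the median of the other T-ALL lines in 33 of 35 regions (median difference 14.7 points), on 20q in 62 of 69 (13.4 points), on 22q in 70 of 86 (13.8 points) and on 4p in 38 of 45 (9.58 points). Over all arms it did so in 1761 of 3073 regions (57.3%). On 4q it did so in 17 of 83, with a median difference of -12.6 points. These arms were chosen after their values were seen, and regions of an arm are not replicates.

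The partners differed in how much of this they showed. On 20q SIL-ALL stood 7.82 points above DND41, 12.1 above HPB-ALL and 18.9 above JURKAT by the median over regions, and on 20p 3.60, 16.8 and 23.4 points. On 22q the differences were 9.22, 13.2 and 20.3 points, and on 4p 10.7, 7.08 and 15.8 points. On 4q they were -11.8, -13.4 and -7.80 points. SIL-ALL was thus on the same side of all 3 partners on these 5 arms, with DND41 nearest on 20p, 20q and 22q. This was not particular to the 5. SIL-ALL was also above all 3 on other arms, such as 1p (8.16, 6.62 and 9.25 points), 8p, 8q, 15q and 21q. It was below all 3 on 10p, and on 9q and 5p the partners differed in sign. On 3p the difference of 9.33 points came from HPB-ALL, which SIL-ALL exceeded by 51.4 points, against 1.69 for JURKAT and -0.689 for DND41. Arms that differ this much were found in other lines too: each T-ALL line against the other 3 had 1 to 5 of 37 arms beyond 10 points, with 4 in SIL-ALL. The size of the difference depended on the setting: on 4q it was -6.11 points without DND41 and -6.12 without HPB-ALL, on 20q 22.8 without DND41, on 22q 8.84 with equal lists, and on 4p 15.8 without HPB-ALL and 17.6 with equal lists. Copy number and the input libraries were not used here, and their part in these differences was not tested.

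**Figure D4:**
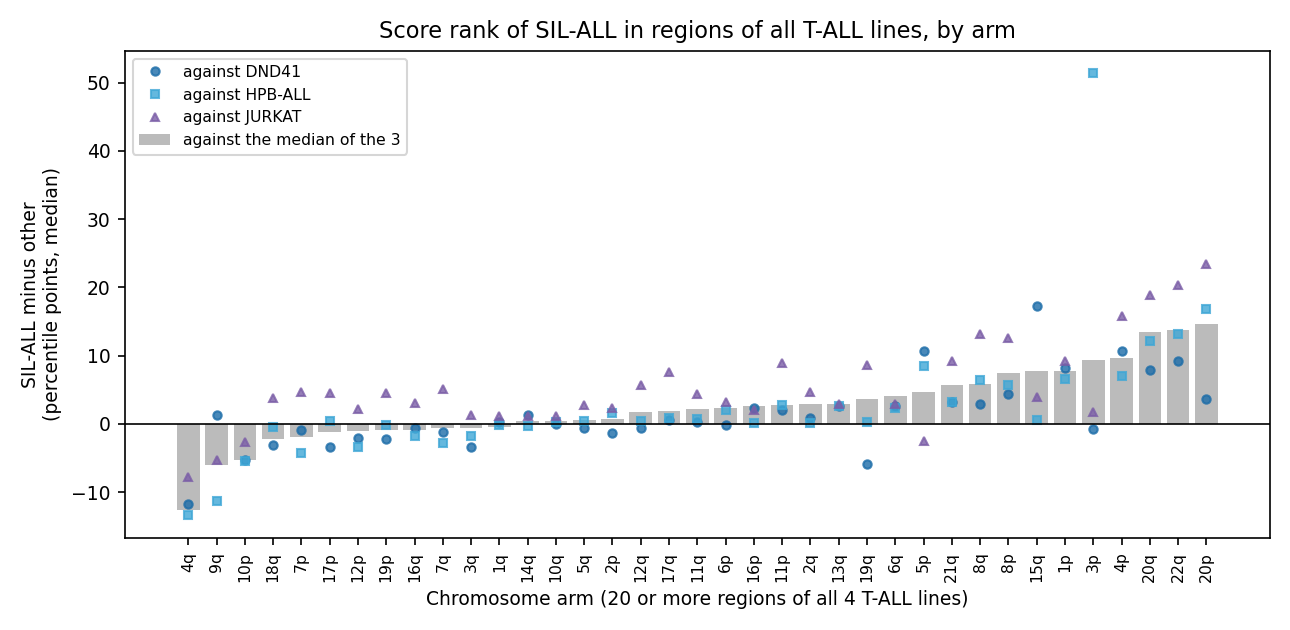
Median difference between the SIL-ALL score percentile and that of the other T-ALL lines (vertical axis, percentile points) in regions of all 4 T-ALL lines, for the 37 chromosome arms with 20 or more such regions (horizontal axis). Bars are against the median of the 3 lines and symbols against each line; 20p, 22q and 20q are highest and 4q is lowest, at -12.6.

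Peak numbers by arm gave part of the same picture. SIL-ALL had its share of peaks above all 6 other lists on 4 of 42 arms (9.52%) and below them on 2 (4.76%), next to 4 to 10 and 4 to 16 in the other lines. On 20q it had 429 peaks, 2.80% of the list (interval 2.55 to 3.08%), against 1.69% (JURKAT) to 2.48% (REH). On 20p it had 166 peaks (1.08%, 0.932 to 1.26%; others 0.320% to 1.01%) and on 4p 249 (1.63%, 1.44 to 1.84%; others 1.26% to 1.49%). On Xp it had 68 (0.444%; others 0.0982% to 0.384%), but the Xp share was inside the range of the others with equal lists, at 0.202%. The 20p, 20q and 4p shares were the highest with equal lists too, at 1.46%, 3.40% and 2.17%. On 4p and 20p the lowest bound of the SIL-ALL interval lay below the highest other share. The low arms were 18p, with 58 peaks (0.379%; others 0.393% to 0.611%), and 21q, with 185 (1.21%; others 1.24% to 2.60%); neither was the lowest with equal lists or with joined peaks.

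At the level of bands, SIL-ALL was above the other lists in 58 of the 453 bands with 10 or more of its peaks (12.8%), and below them in 57 of 779 bands (7.32%). The first share rests on a filter by SIL-ALL's own peaks, so the shares cannot be compared. Over all 779 bands SIL-ALL was above in 86, next to 79 (DND41) to 160 (HPB-ALL) for the other lists. The other lists were below in 44 (JURKAT) to 158 (K562). The ratio to the highest other share was largest in Xp22.2, with 10 SIL-ALL peaks and 0 to 2 in the others, and Xq26.1, with 14 and 1 to 5. The next bands were 20p11.23 (24 peaks; others 0 to 14), 5q14.3 (20; 2 to 11) and 8q23.1 (12; 0 to 7). In 1 Mb windows SIL-ALL was above the others in 101 of 523 with 10 or more of its peaks (19.3%), but in 0% of windows by more than 3 times. This filter too favours windows where SIL-ALL is high. The largest ratio of the windows, 2.33, belonged to chromosome 10 from 45000001 to 46000000, with 12 peaks against 1 to 5. The second, 2.32, belonged to chromosome 22 from 32000001 to 33000000, with 19 against 0 to 8.

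Bands of genes known in T-ALL were examined one by one, from a list of 18. In 10q24.31, the band of the homeobox gene TLX1, SIL-ALL had 24 peaks, and DND41 had 12, HPB-ALL 14, JURKAT 13, K562 7, REH 5 and SUP-B15 4. As a share of the list this was 0.157% in SIL-ALL (interval 0.105 to 0.233%) against 0.0531% to 0.118%, and the highest other share lay inside the interval. Of the 24 peaks, 12 met no other list, 12 met another T-ALL list and 1 met all 3. Over the whole SIL-ALL list these shares were 22.9%, 71.6% and 24.2%. With peaks within 500 bp joined, the 24 peaks made up 15 sites. It was the single band of the 18 in which SIL-ALL was above all others. Over all bands SIL-ALL was above in 86 of 779, so this count does not set the listed bands apart.

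SIL-ALL was below all others in 6q23.3, the band of the haematopoietic regulator gene MYB, and in 21q22.12, that of RUNX1, by small margins. It had 10 peaks in each (0.0653%), as did DND41 (0.0669%), against 16 and 21 in JURKAT and 20 and 17 in HPB-ALL. Over all bands SIL-ALL was below all others in 57 of 779 (7.32%). In the remaining bands of the list SIL-ALL was inside the range of the 6 other lists. In some of these it was still below all 3 other T-ALL lists. These were 14q11.2, the band of the T-cell receptor gene TRA (0.216% against 0.266% to 0.321%), and 7p15.2, that of the HOXA genes (0.0523% against 0.0602% to 0.102%). The margins were small in 7q34 (0.248% against 0.254% to 0.317%) and 1p33 (0.0523% against 0.0535% to 0.115%). In 9q34.12, the band of the tyrosine kinase gene ABL1, SIL-ALL had 2 peaks, DND41 and HPB-ALL 1 each, JURKAT 11 and K562 54. In 9q34.13, that of the nuclear pore gene NUP214, SIL-ALL had 22 peaks, and the others 7 to 35. SIL-ALL had 75 peaks in 9q34.3, the band of the receptor gene NOTCH1, at 0.490% close to HPB-ALL (0.486%) and JURKAT (0.472%), above DND41 (0.415%) and below K562, REH and SUP-B15 (0.847% to 0.889%). The best of these 75 (139439991 to 139441417) stood at percentile 97.5 and met all 6 other lists.

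In 10p14, the band of the T-cell factor gene GATA3, SIL-ALL had 29 peaks, DND41 22, HPB-ALL 28 and JURKAT 46, while K562, REH and SUP-B15 had 5, 6 and 4. Of the 29, 16 met another T-ALL list, 9 met all 3 and 3 met a non-T list. Over the whole SIL-ALL list these shares were 71.6%, 24.2% and 45.5%. The best of them (chromosome 10, 8096871 to 8097869) stood at percentile 96.9 and met the 3 other T-ALL lists and no non-T list. In this band the T-ALL lists (0.147% to 0.310%) did not overlap the others (0.0531% to 0.0841%). The lists did not overlap in 9q34.3 either, where the T-ALL lists were the lower (0.415% to 0.490% against 0.847% to 0.889%). How many of all bands separate the lists in this way was not counted, so no lineage link is drawn from either band. In 14q32.2, the band of the T-cell factor gene BCL11B, SIL-ALL had 44 peaks, and DND41 54, JURKAT 33, HPB-ALL 26, REH 22, SUP-B15 15 and K562 9. In 12q24.31, the band of KDM2B itself, SIL-ALL had 120 peaks. Of these, 102 met another T-ALL list and 79 a non-T list, against 71.6% and 45.5% of the whole list. In 1p33, the band of TAL1 and STIL, SIL-ALL had 8 peaks, in 5q35.1, the band of TLX3, 24, and in 11p13, the band of LMO2, 39. In 9p21.3, the band of the cell cycle inhibitor gene CDKN2A, SIL-ALL had 4 peaks, DND41 3, HPB-ALL 17, JURKAT 8, K562 0, REH 1 and SUP-B15 3.

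**Figure D5:**
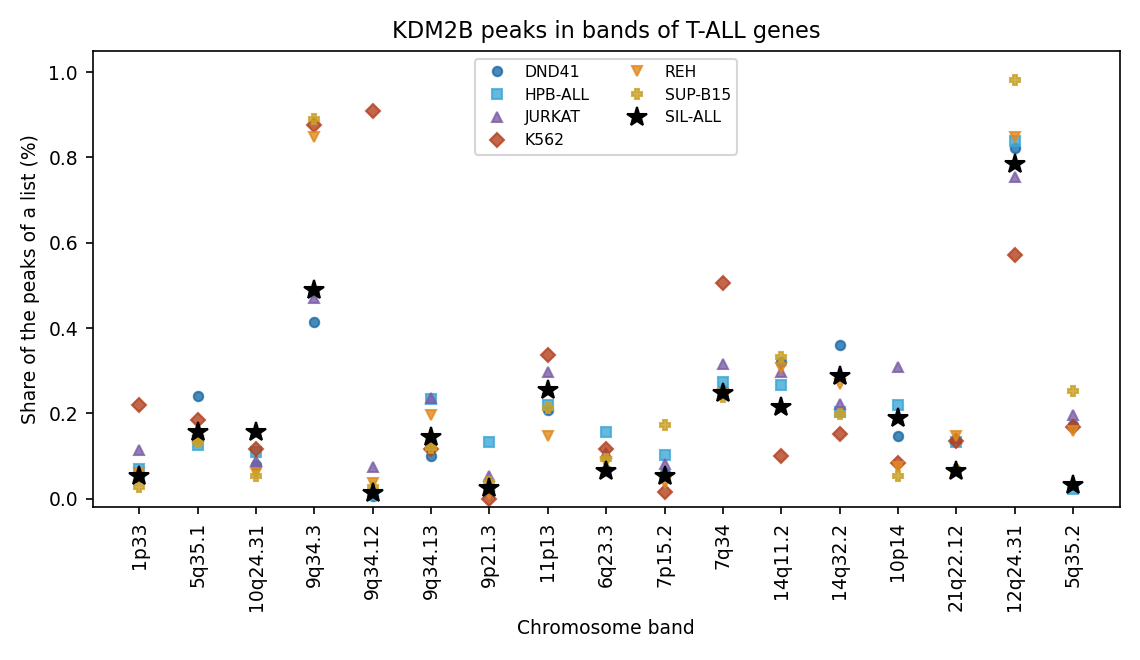
Share of the peaks of each list (vertical axis, percent) in the bands of genes known in T-ALL (horizontal axis); stars are SIL-ALL and smaller symbols the other lines, and 14q13.3, with 1 peak in all lists together, is left out. SIL-ALL is highest in 10q24.31. Elsewhere it mostly lies within or close to the range of the other T-ALL lines, as in 9q34.12 where K562 is highest. In 14q11.2 and 7p15.2, among other bands, it lies below all the other T-ALL lines.

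Some stretches of the genome that other lists marked held no SIL-ALL peak. Regions of 2 or more other lists without SIL-ALL formed 2688 runs unbroken by a SIL-ALL region, of which 1755 (65.3%) were a single region and 58 held 5 or more. The longest held 14 regions, over 712.5 kb of 5q35.3 (chromosome 5, 179921380 to 180633898), where JURKAT and DND41 had 23 peaks each, K562 11, SUP-B15 8, REH 6 and HPB-ALL 3. Another, picked after its values were seen, lay in 5q35.1 to 5q35.2 (chromosome 5, 172754493 to 175816369), with 9 regions over 3062 kb, where JURKAT had 13 peaks, DND41 12, SUP-B15 8, K562 4, REH 2 and HPB-ALL 0. SIL-ALL had 5 peaks and HPB-ALL 3 in 5q35.2, against 10 to 29 in the other lists. The stretches were chosen for having no SIL-ALL peak, so its low count there is not a finding; HPB-ALL was the lowest of the other lists in both.

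The next runs, of 10 regions each, lay in 19p13.11 (chromosome 19, 17448048 to 17650667) and 19q13.12 (chromosome 19, 36909329 to 38146734). In the latter HPB-ALL had 19 peaks and DND41 13, against 5 in JURKAT and 0 or 1 in the non-T lines. By the same count the longest run was 14 regions in DND41, 12 in JURKAT, 34 in HPB-ALL and REH, and 51 in K562 and SUP-B15, so the SIL-ALL run of 14 was not long among the lists. The bands without a SIL-ALL peak that every other list had, also picked after their values were seen, were 9p22.3 (others 1 to 10), 4q31.23 (1 to 13), 2p11.1 (1 to 5) and 7p12.3 (1 to 6). The band 4q31.23 also holds a region named above, strong in DND41, HPB-ALL and JURKAT, and it lies on 4q, which had the most negative rank difference of the 37 arms with 20 or more regions. Band, region and arm were each picked for absent or low SIL-ALL values, so they are not separate findings. A link between them was not tested.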

How the data were processed

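KDM2B peaks of 7 lines were analysed. The 5 input libraries, of SIL-ALL, HPB-ALL, K562, REH and SUP-B15, were not used here. DND41 and JURKAT have no input library among the samples, so the lists may differ in their control. FastQC 0.10.1, Bowtie 1.1.1 and the build hg19 are named, per the submitters' processing notes. Peak names in the files begin with MACS; no source used here states its version, the control it was given or its cutoff. The score per peak is as the authors deposited it, has no stated unit and was used as a rank within a list. Read depth is unknown, and a deeper library can give a longer list. The lowest score differed between lists, from 50 to 80.03.

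Peaks overlapping by 1 bp or more were counted as shared, merged into regions across lists, or joined at 500 bp within a list. Bands follow the hg19 table of circlize 0.4.16, by peak midpoint; positions count from 1, and chromosome Y is left out of arms, bands and windows. Intervals are Wilson 95% intervals. No test between groups was run; 77 values were searched for SIL-ALL far from the other 6 lists, by its gap to the nearest divided by the range over the 7 lists (Dixon's critical value 0.568). The counting was tested on simulated lists. The members, gene bands and rules were chosen with earlier results of these data known. Named regions are the highest by score, width, percentile, difference, peak number or share ratio in each class; arms of the rank comparison, 20p, 20q, 22q, 4p, 4q and 3p, were chosen after their values were seen. The planned gene lists and promoter shares were not run, since the gene table used here is of another build. Alternatives were equal lists, the upper part of each list by its median score, 50% reciprocal overlap, joined peaks, autosomes, a common score floor and each line left out. Computations used Python 3.11.15, numpy 2.4.6, pandas 2.3.3, scipy 1.17.1 and matplotlib 3.10.9.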

Additional observations from a re-analysis of the deposited data

Results flagged for a closer look

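Among 77 values compared over the 7 lists, SIL-ALL stood far from the others in 2, both shares of peaks in a band of chromosome X. The critical value marks about 1 in 20 comparisons by chance when any of the 7 lists can be marked. Here only SIL-ALL could be, so that rate does not apply, and the rate for SIL-ALL was not worked out. In Xp22.2 it had 0.0653% of its peaks, against at most 0.0168% in K562. In Xq26.1 it had 0.0915%, against at most 0.0398% in SUP-B15. Both bands entered the comparison because their ratio to the highest other share was large, so no chance rate holds for them. The counts behind them are 10 and 14 peaks.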

How the results depend on the processing

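Of 145 alternative values for the 40 results, 54 stayed inside the 95% interval of the value reported (counts within 1.5 times) and 91 lay outside it. A reversal was looked for only in the differences by arm, and 0 of those reversed. Changes of order among the lists, such as Xp no longer highest with equal lists, were not counted as reversals. No paired analysis was possible because there was 1 library per line. The planned promoter distances were not run, read depth is unknown, and every share depends on how far each list was called; causes were not tested.

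With equal lists, SIL-ALL peaks met by another T-ALL list made up 73.9%, by a non-T list 60.7% and by none 17.6%. The shares met by single lists were 51.1% (DND41), 50.4% (HPB-ALL), 44.6% (JURKAT), 38.3% (K562), 26.4% (REH) and 38.5% (SUP-B15), and the shares of those lists met by SIL-ALL 56.2%, 52.2%, 48.1%, 36.8%, 30.3% and 39.8%. Regions of the 3 other T-ALL lines without SIL-ALL numbered 316, and regions of a single pair 160 (DND41), 198 (HPB-ALL), 181 (JURKAT) and 58 (REH). The median percentile of peaks of all lists was 89.3, SIL-ALL was lowest on 4 arms, and it was highest in 32 of the 104 windows that then held 10 or more of its peaks, against 101 of 523 as deposited.

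With peaks above the list's median score the shares were 73.7% (another T-ALL list), 23.5% (all 3), 43.5% (non-T) and 21.5% (none), with 334 regions lacking SIL-ALL. With a 50% reciprocal overlap they were 42.9%, 3.27%, 19.8% and 50.3%. Single lists then met 20.6% (DND41), 20.5% (HPB-ALL), 19.7% (JURKAT), 7.87% (K562), 6.36% (REH) and 9.78% (SUP-B15) of SIL-ALL peaks, and SIL-ALL met 21.1%, 24.6%, 20.3%, 20.3%, 11.9% and 19.9% of theirs. Peaks, here not merged regions, met by a single list numbered 1121 (DND41), 1043 (HPB-ALL), 1113 (JURKAT), 224 (K562), 325 (REH) and 360 (SUP-B15).

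With joined peaks the shares were 72.3% (another T-ALL list), 30.6% (all 3) and 23.8% (none). Median percentiles were 24.32 (no list) and 89.6 (all lists), SIL-ALL was lowest on 1 arm and highest in 38 of 231 such windows. With a common score floor the shares were 65.0%, 17.0%, 29.9% (non-T) and 30.8% (none), with 289 regions lacking SIL-ALL.

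With each other line left out in turn, the share met by another T-ALL list ran from 63.3% to 71.6%, by all from 24.2% to 33.7%, by a non-T list from 34.9% to 45.5% and by none from 24.0% to 28.1%. Regions lacking SIL-ALL ran from 583 to 1295: 1295 without DND41, 1246 without HPB-ALL and 1188 without JURKAT, since a region then needs 2 lines. The alternatives for the difference by arm were chosen after seeing the data; 20p, 20q, 22q, 4p and 4q kept their sign in all of them.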
